A study of Drosophila melanogaster with 27 samples.

Results

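The genes described here are 40 Drosophila genes that serve mature neurons: channels that carry the action potential, proteins of the synaptic vesicle cycle, enzymes and transporters of neurotransmitters, their receptors, surface and cytoskeletal proteins of axons and synapses, and the ELAV family of neuronal RNA-binding proteins. They were chosen by function, as genes that neural stem cells (neuroblasts) do not need, and not by any measured value, although earlier results of these data were known. Each gene was taken by its BDGP6 coordinates with 5000 bp on each side, called its stretch here, and was set against the other 13928 of 13968 protein-coding genes. All 40 were found in the annotation.

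The study profiled proteins on DNA and histone marks in brains of third-instar larvae with CUT&RUN, in which an antibody tethers a nuclease to its target and the released DNA fragments are sequenced. In fruC-null brains, which also carried the brat-null combination brat11/Df(2L)Exel8040 and had the fruC deletion fruC-DelC over fruAj96U3, the marks H3K27ac, H3K4me3 and H3K27me3 were profiled in 2 replicates each. Control brains carried the same brat-null combination with a Myc tag on the C isoform of Fruitless (fruC::myc), and were profiled for these 3 marks, for H3K9me3, for FruC::Myc through its tag, for FruCOM with an antibody against the part common to Fru isoforms, and for Trl, Caf-1, Su(H) and Su(z)12, again in 2 replicates per antibody. Each factor sample held 50 brains and each histone sample 25, so that, of 27 samples with 1 IgG sample that was not analysed here, none came from purified cells. Loss of brat fills the brain with extra type II neuroblasts, but whole brains were homogenized, so neuroblasts, their progeny, neurons and glia all contributed, and binding in few cells cannot be told apart from weak binding in many.

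Neurons fire and signal through a shared set of proteins. Voltage-gated sodium, potassium and calcium channels shape the action potential, calcium entry drives SNARE proteins to fuse transmitter-filled vesicles, and ligand-gated receptors on the next cell answer. These functions belong to differentiated neurons, whereas Fruitless C, a BTB zinc-finger protein, is known in neuroblasts as a repressor of transcription. Su(H) is the DNA-binding partner of Notch, Trl is the GAGA factor, and Su(z)12 and Caf-1 are subunits of Polycomb repressive complex 2 (PRC2), the enzyme that lays down H3K27me3, although Caf-1 also serves other chromatin complexes. H3K27ac and H3K4me3 mark active regulatory DNA and active promoters, and H3K9me3 marks heterochromatin. No RNA was measured in these samples.

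The strongest FruC::Myc peaks of 9 of the first 10 members are shown to let a reader see the sites that the values below describe. That of the other one, Nrx-1, lies in an untranslated region and is not printed. Each runs from 100 bp before to 100 bp after the summit of the peak in replicate 1, less for unc-13 (150 bases), on the plus strand of the Release 6 genome (BDGP6) of RefSeq. Capitals mark GAGAG or its reverse complement CTCTC, the core of the element that the GAGA factor is known to bind.
fne: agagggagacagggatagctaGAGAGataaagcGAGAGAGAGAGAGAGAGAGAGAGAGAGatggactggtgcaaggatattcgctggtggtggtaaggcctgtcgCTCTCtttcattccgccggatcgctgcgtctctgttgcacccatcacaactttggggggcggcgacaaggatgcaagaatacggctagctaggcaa
nSyb: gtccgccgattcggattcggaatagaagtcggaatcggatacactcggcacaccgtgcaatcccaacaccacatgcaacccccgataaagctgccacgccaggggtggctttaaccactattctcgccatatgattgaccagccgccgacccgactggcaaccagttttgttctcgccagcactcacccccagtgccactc
unc-13: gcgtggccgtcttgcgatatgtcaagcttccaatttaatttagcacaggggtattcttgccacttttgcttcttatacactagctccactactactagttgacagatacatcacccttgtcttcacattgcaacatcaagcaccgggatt
elav: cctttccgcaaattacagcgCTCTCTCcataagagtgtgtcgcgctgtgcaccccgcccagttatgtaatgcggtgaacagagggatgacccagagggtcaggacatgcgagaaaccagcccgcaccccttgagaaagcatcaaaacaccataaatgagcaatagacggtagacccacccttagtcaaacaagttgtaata
Nrg: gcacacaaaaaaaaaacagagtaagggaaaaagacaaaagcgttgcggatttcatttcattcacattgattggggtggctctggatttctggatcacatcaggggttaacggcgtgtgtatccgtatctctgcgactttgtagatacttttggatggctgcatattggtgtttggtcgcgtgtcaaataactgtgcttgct
Syx1A: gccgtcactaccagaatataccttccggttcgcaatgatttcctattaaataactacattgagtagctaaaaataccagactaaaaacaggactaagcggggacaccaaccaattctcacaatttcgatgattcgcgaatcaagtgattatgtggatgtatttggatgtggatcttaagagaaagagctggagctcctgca
para: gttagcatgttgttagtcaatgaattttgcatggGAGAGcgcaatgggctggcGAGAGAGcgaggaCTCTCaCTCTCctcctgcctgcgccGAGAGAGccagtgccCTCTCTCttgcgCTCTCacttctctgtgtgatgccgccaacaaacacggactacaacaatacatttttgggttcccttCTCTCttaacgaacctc
nAChRalpha5: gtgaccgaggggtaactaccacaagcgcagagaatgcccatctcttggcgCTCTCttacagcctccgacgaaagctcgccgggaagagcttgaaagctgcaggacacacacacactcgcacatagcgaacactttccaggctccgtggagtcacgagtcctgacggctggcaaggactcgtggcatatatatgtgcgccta
Appl: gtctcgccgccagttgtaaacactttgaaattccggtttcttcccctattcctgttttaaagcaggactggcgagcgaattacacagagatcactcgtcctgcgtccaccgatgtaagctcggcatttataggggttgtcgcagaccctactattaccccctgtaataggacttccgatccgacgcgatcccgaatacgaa

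The sites of fne (chrX:12938238-12938438), elav (chrX:520354-520554), Syx1A (chr3R:24105768-24105968) and nAChRalpha5 (chr2L:14039788-14039988) lay at the genes' own promoters, those of para (chrX:16526189-16526389) and Nrg (chrX:8523804-8524004) in introns, and that of Appl (chrX:526931-527131) upstream. Those of nSyb (chr3L:1628413-1628613) and unc-13 (chr4:867026-867175) lay downstream, beside other genes. Counted at every position where the letters occur, overlapping ones included, the fne sequence held 14 matches, that of para 11, that of elav 2 and that of nAChRalpha5 1, whereas those of nSyb, unc-13, Nrg, Syx1A, Nrx-1 and Appl held 0. Among all 210 distinct FruC::Myc replicate 1 peaks in the members' stretches, 111 had GAGAG or CTCTC within 100 bp of the summit (52.9%, 95% Wilson interval 46.1 to 59.5%, which like all such intervals here covers counting error only). The share was 40.1% of the 15338 peaks elsewhere and 21.6% of 68180 windows of the same length spread evenly over the genome. For the stronger peaks, with a −log10 Q-value above 50, the shares were 11 of 29 peaks (37.9%) at members, with an interval of 22.7 to 56.0%, and 50.0% elsewhere, a difference that lies inside that interval. A match of letters is a description of the sequence and not a bound site.

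FruC::Myc was found near nearly every member, but mostly at modest strength. A FruC::Myc peak in either replicate lay in the stretch of 38 of 40 members (95% Wilson interval 83.5 to 98.6%), beside 77.2% of the other genes, and in both replicates of 27 members, beside 39.5%. The −log10 Q-value, MACS2's measure of how far a peak stands above its background (larger is stronger), exceeded 100, the threshold given in the Methods for high-confidence Fru peaks, at 5 members, beside 13.5% of the other genes. These 5 were fne, nSyb, unc-13, elav and Nrg. Just inside the threshold stood the peaks of Nrg at 103 and 101, and just outside it those of Syx1A at 99.5 and para at 94.1. The lists hold no read totals, so depth is unknown, and Q-values depend on it: replicate 1 listed 15548 FruC::Myc peaks and replicate 2 listed 5159. No member passed 100 in replicate 2, beside 0.129% of the other genes.

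The members are long genes, which bears on every count of this kind. Their bodies had a median of 34.6 kb (range 4.16 to 225 kb), against 2.16 kb for the other genes, and a median of 2 start sites, against 1. Counts of strong FruC::Myc peaks are therefore given by class of body length, none of them tested. Of the 11 members of 50 kb or longer, 0 had a peak above 100, beside 42.1% of 302 other genes. Of the 16 members of 20 to 50 kb, 3 had one, beside 31.3%, and of the 12 members of 5 to 20 kb, 2 had one, near the background of 20.7%. Peaks of any strength were as frequent as elsewhere, at 11 of 11, 15 of 16 and 11 of 12 members, beside 96.0%, 91.5% and 89.3%. The single member under 5 kb was Syx1A. These are counts over genes without a test, since each antibody gave 2 lists and no counts of reads, and no replicate error can be attached to them.

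**Figure D1:**
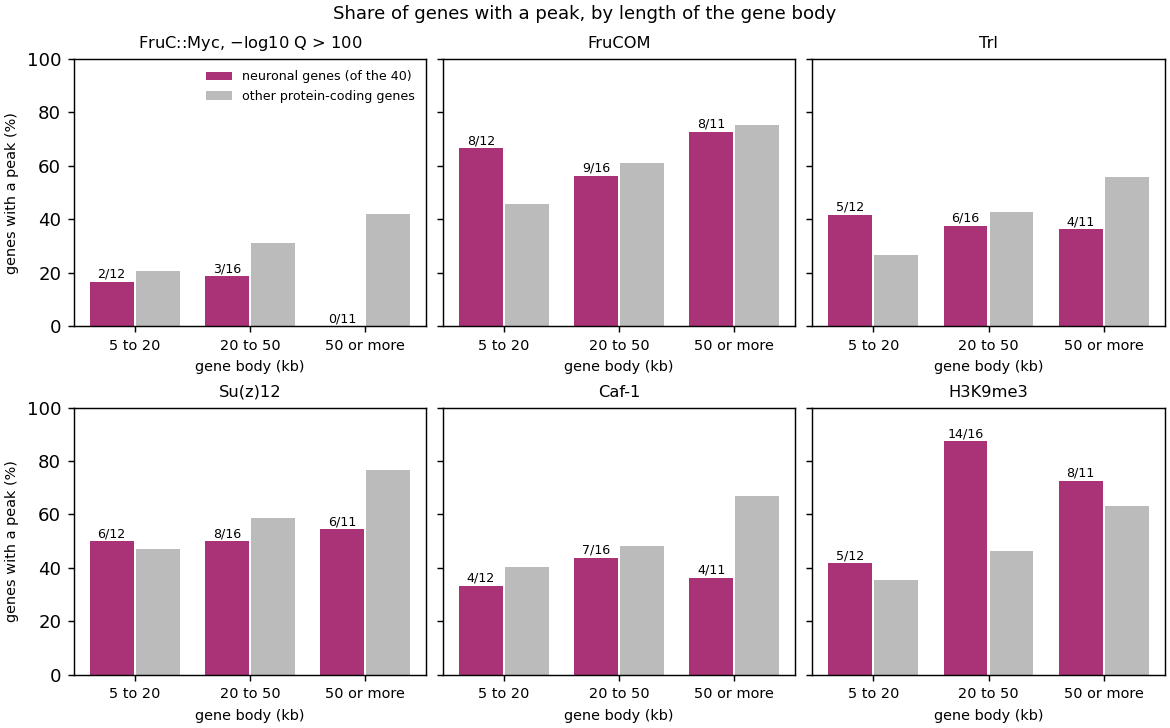
Percent of genes (vertical axis) with a peak of each factor in the gene body or 5000 bp on each side, by length of the gene body, with members in the left bar and other protein-coding genes in the right bar of each pair. Among genes of 50 kb or longer, FruC::Myc peaks above a −log10 Q-value of 100 were at 0 of 11 members and 42.1% of the others, and the Trl, Su(z)12 and Caf-1 bars of members were also the lower ones.

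Peak by peak the same difference in strength was seen. The 210 replicate 1 peaks at members had a median −log10 Q-value of 14.7 (quartiles 7.59 and 28.7), against 20.1 (9.69 and 46.6) for the 15338 peaks elsewhere. A value above 50 was reached by 13.8% of the peaks at members and 22.9% elsewhere, and a value above 100 by 3.33% and 7.94%. Of the 48 replicate 2 peaks at members, 47 overlapped a replicate 1 peak, while 46 of the 210 replicate 1 peaks (21.9%) overlapped a replicate 2 peak, beside 32.1% of those elsewhere. Over the 27 members with a peak in both, the strongest Q-values of the replicates ranked alike (Spearman rho 0.83, a description over genes that share 2 libraries).

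The peaks lay at promoters about as often as elsewhere. The summit was in a promoter of any protein-coding gene for 86 of the 210 (41.0%, interval 34.5 to 47.7%), beside 47.2% of the peaks elsewhere. By position relative to the member, 87 of the 210 lay in introns, 48 in promoters (1000 bp upstream to 100 bp downstream of a start site of the member), 33 upstream, 31 downstream and 11 in exons. The nearest start site of any gene was the member's own for 119 peaks (56.7%). A promoter peak was found at 29 of 40 members, beside 49.3% of the other genes. The members have more start sites, and among genes with at least 3 the shares were 14 of 17 members (82.4%) and 83.7% of the others. With a single start site they were 9 of 16 (56.2%) and 41.9%. The strongest promoter peak of the 29 members had a median −log10 Q-value of 20.6, against 31.5 for 6856 other genes. In 9 members the strongest peak of the whole stretch was this promoter peak, in a further one, Fas2, a promoter peak and an intronic peak had the same value of 9.01, and in 18 of the 38 members with a peak it lay nearest to the start site of another gene, with the locus shared by VAChT and ChAT counted as their own.

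**Figure D2:**
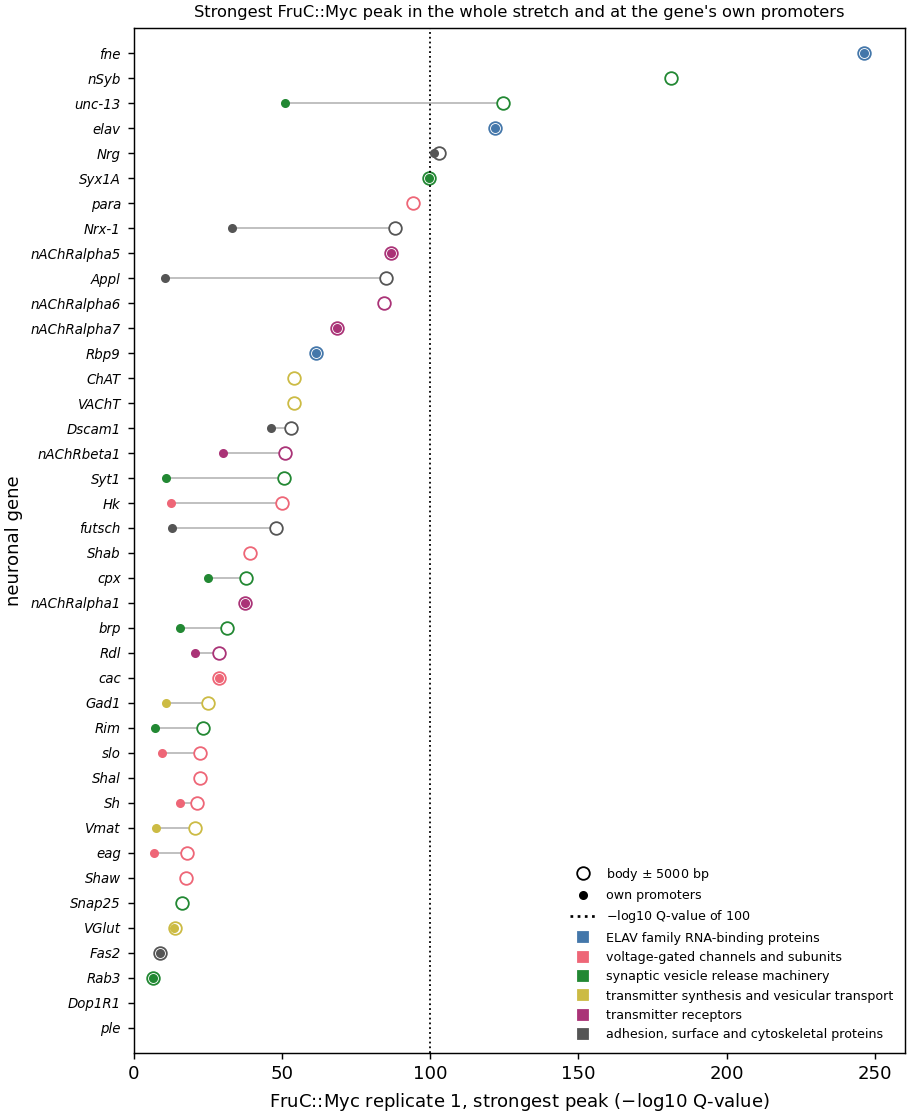
Strongest FruC::Myc replicate 1 peak (−log10 Q-value, horizontal axis) of each member (rows), with an open circle for the whole stretch, a filled circle for the gene's own promoters and a dotted line at 100. The circles coincide in the 9 members whose strongest peak lies at their own promoter and in Fas2, where it is tied with an intronic peak. Among the 9 are fne at 246 and elav at 122, while nSyb at 181 has no filled circle and 11 members in all have none.

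The ELAV family held the strongest site. In what follows, a pair of values gives the strongest peak of the stretch in replicate 1 and then in replicate 2, unless a site is named. elav encodes the nuclear RNA-binding protein used as the pan-neuronal marker, and fne and Rbp9 are its relatives. The fne peak (chrX:12938109-12938546, 179 bp upstream of a start site of fne) had the highest FruC::Myc value of any member, with a −log10 Q-value of 246 in replicate 1 and 51.3 in replicate 2, at 16.0-fold and 18.6-fold enrichment over background. It overlapped a peak in 10 of the 12 factor lists, with FruCOM at 31.3 and 26.0, Trl at 14.3 and 17.8, Su(z)12 at 16.2 and 8.48, Caf-1 at 9.81 in replicate 1 and Su(H) at 7.38 in replicate 1. The 2 lists without it were the second ones of Su(H) and Caf-1. A further fne peak, in an intron, reached 115 in replicate 1 and 31.7 in replicate 2.

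The elav peak (chrX:520280-520894, 169 bp upstream of an internal start site) had a −log10 Q-value of 122 in FruC::Myc replicate 1 and 38.2 in replicate 2. It too overlapped 10 factor lists, with 35.7 and 21.8 for FruCOM, 3.31 and 12.9 for Trl, 12.4 and 8.36 for Su(z)12, and 7.50 and 2.28 for Caf-1, and Su(H) was the factor without a peak. Rbp9 had weaker peaks, at 61.5 and 6.50 for FruC::Myc and 5.44 and 8.36 for FruCOM. All 3 ELAV genes had a peak of FruC::Myc, FruCOM, Trl, Su(z)12 and Caf-1 in their stretches and windows of all 3 marks at their promoters. Of the other genes, 77.2%, 31%, 17.2%, 33.1% and 28.1% had a peak of these factors, in this order, and 33.5% had such promoter windows. These shares are over all lengths, while elav and Rbp9 have bodies of 14.0 and 13.7 kb and fne of 32.9 kb. Among other genes of 5 to 20 kb they were 89.3%, 45.8%, 26.6%, 46.9% and 40.2% for the factors. Among those of 20 to 50 kb they were 91.5%, 61.2%, 42.8%, 58.8% and 48.3%. In both replicates, Trl and Su(z)12 were at 2 of the 3 ELAV genes and Caf-1 at 1. Rbp9 had Trl at 2.35 in replicate 2 alone, and Su(z)12 at 7.84 and Caf-1 at 4.98 in replicate 1 alone.

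The voltage-gated channels and their subunits had FruC::Myc peaks of mostly low strength, with para and Hk as the highest. All 9 channel genes and subunits had a FruC::Myc peak in replicate 1, beside 77.2% of the other genes. In both replicates para, Shab and Hk had one, beside 39.5% of the other genes. That share was 64.8% among other genes of 20 to 50 kb and 74.8% among those of 50 kb or longer. Of the 9 genes, 0 passed 100, beside the 13.5% of other genes. The strongest replicate 1 values of the 9 had a median of 22.4, against 34.4 in 17 other voltage-gated and leak channels, of which 2 passed 100. para, the main voltage-gated sodium channel of the fly, reached 94.1 in replicate 1 and 13.4 in replicate 2 in an intron, 1125 bp from a start site of its own and 874 bp from that of Cnx14D, and the site overlapped 6 factor lists. The potassium channels Sh, Shal, Shaw, slo and eag reached 21.5, 22.3, 17.7, 22.4 and 18.1 in replicate 1 with no peak in replicate 2. Shab, also a potassium channel, had 39.4 and 4.58, and the calcium channel cac had 28.7 in replicate 1 alone.

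Hk, the beta subunit of Shaker potassium channels, was the channel gene with a site of many factors. At an intronic site of Hk 1055 bp upstream of an internal start site, Su(H) had a −log10 Q-value of 27.9 in replicate 1 and 15.0 in replicate 2, the only Su(H) peak found in both replicates at a member. The same site had Caf-1 at 48.0 and 53.5, Su(z)12 at 31.5 and 14.7, FruCOM at 11.4 in replicate 1 and FruC::Myc at 47.3 in replicate 1. Its Caf-1 values were the highest of any member. The other Su(H) peaks lay at the fne promoter in replicate 1 and in an intron of Appl in replicate 2 (3.77). Su(H) peaks were thus at 3 of 40 members, beside 3.6% of the other genes. By length, they were at 0 of 12 members of 5 to 20 kb, beside 5.08%, and at 3 of 16 of 20 to 50 kb, beside 10.3%. They were at 0 of 11 members of 50 kb or longer, beside 17.5%. All 3 are among the 12 members on the X chromosome, beside 4.99% of the other X-linked genes.

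In the vesicle release machinery, 3 of 9 genes were among the 10 members with the strongest FruC::Myc peaks, but only Syx1A had that peak at its own promoter. nSyb, the vesicle SNARE synaptobrevin, had 181 in replicate 1 and 27.4 in replicate 2 at a site in 10 factor lists, downstream of the gene and 136 bp from the start site of CG13928. There FruCOM had 18.7 and 21.7, Su(z)12 16.5 and 7.65, Trl 6.83 and 5.12, and Caf-1 6.03 and 8.38. unc-13, the vesicle-priming factor and the single member on chromosome 4, had 125 and 15.3 at a downstream site 50 bp from the start site of Gyf, with no other factor than FruC::Myc. Neighbouring genes were named after their values were seen.

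Syx1A, the plasma membrane SNARE syntaxin, had 99.5 in FruC::Myc replicate 1 and 9.82 in replicate 2 at its promoter, 105 bp upstream of its start site. Caf-1 had 19.1 and 13.2 there, and Su(z)12 10.5 and 6.38, whereas FruCOM had no peak in the stretch. brp, the scaffold of the active zone, had a FruCOM peak of 21.2 in replicate 1 at its promoter, beside FruC::Myc at 31.6 and 8.57 in its stretch. Syt1, the calcium sensor of release, had FruC::Myc at 50.6 in replicate 1 alone and no peak of any other factor. Rab3, a vesicle GTPase, had 6.43 and 5.71, and Rim, an active-zone scaffold, had 23.3 and 5.71. cpx, complexin, had 37.9 and 7.98 for FruC::Myc and a Su(z)12 peak of 38.6 in replicate 1 in an exon, which no other list shared. Snap25, the remaining SNARE, had 16.4 in replicate 1 alone.

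Genes for transmitter synthesis and vesicular transport had FruC::Myc peaks of up to 54.1. Trl and Caf-1 peaks were at 0 of these 6 genes, beside 17.2% and 28.1% of the other genes, and with 6 genes no difference is read from this. VAChT and ChAT, the vesicular transporter and the synthetic enzyme of acetylcholine, share one locus, and their 54.1 and 10.3 are the same peak, as are all 7 FruC::Myc replicate 1 peaks of VAChT. Gad1, which makes GABA, had 25.0 and 3.01, VGlut, the vesicular glutamate transporter, had 14.1 and 3.45, and Vmat, the vesicular monoamine transporter, had 20.7 in replicate 1 alone. ple, tyrosine hydroxylase, the first enzyme of dopamine synthesis, had no peak in any of the 13 lists. The other member without a FruC::Myc peak was a receptor of the same transmitter, Dop1R1, whose only peaks were 4 of H3K9me3, the strongest at 19.8.

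Of the transmitter receptors, 6 of 7 had a FruCOM peak, beside 31% of the other genes, and the same 6 a Su(z)12 peak, beside 33.1%, Dop1R1 being the exception for both. In 29 other transmitter receptors the counts were 14 and 13. The 7 receptors are long, with a median body of 49.4 kb. Among other genes of 20 to 50 kb the shares were 61.2% for FruCOM and 58.8% for Su(z)12, and among those of 50 kb or longer 75.5% and 76.8%. In both replicates, FruCOM was at 5 of the 7 receptors and Su(z)12 at 3. Of the nicotinic acetylcholine receptor subunits, nAChRalpha5 had its strongest FruC::Myc peak at its own promoter, 282 bp upstream of the start site, with 86.7 in replicate 1 and 12.2 in replicate 2. nAChRalpha6 had 84.5 and 10.6, nAChRalpha7 had 68.5 and 5.78, nAChRbeta1 had 51.0 and 2.50, and nAChRalpha1 had 37.5 and 5.54. The nAChRalpha6 peak lay downstream, at the neighbouring CG4036, with Caf-1 at 31.3 and 13.2. At the nAChRalpha1 promoter FruCOM had 20.6 and 8.83. Rdl, the GABA-gated chloride channel, had 28.7 and 4.58 for FruC::Myc.

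Among adhesion, surface and cytoskeletal genes, Nrg, the neuroglian cell adhesion molecule, had FruC::Myc at 103 and 16.1 in an intron, 6163 bp from its nearest start site, and a promoter peak of 101 in replicate 1. Nrx-1, the presynaptic adhesion molecule neurexin, had 88.3 and 6.89 at a downstream site 26 bp from the start site of Pfdn5. Appl, the amyloid precursor protein of the fly, lies beside elav, and its 85.0 and 26.996 belong to a peak at −3470 bp from its start site that is also in the stretch of elav, one of 2 replicate 1 peaks these genes share. FruCOM had 24.9 and 16.1 at that site, while the Su(H) peak of Appl and its strongest Trl and Caf-1 peaks lay deep in the gene, inside an H3K9me3 peak of 66.2. Dscam1, a receptor of neurite self-avoidance, had 53.2 and 7.48, futsch, the microtubule-binding protein of the MAP1B family, had 48.1 in replicate 1 alone, and Fas2, the fasciclin II adhesion molecule, had 9.01 in replicate 1 alone. Of the 10 members with the strongest FruC::Myc peak, the peak lay at the gene's own promoter in 4 and nearest to another gene's start site in 6.

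**Figure D3:**
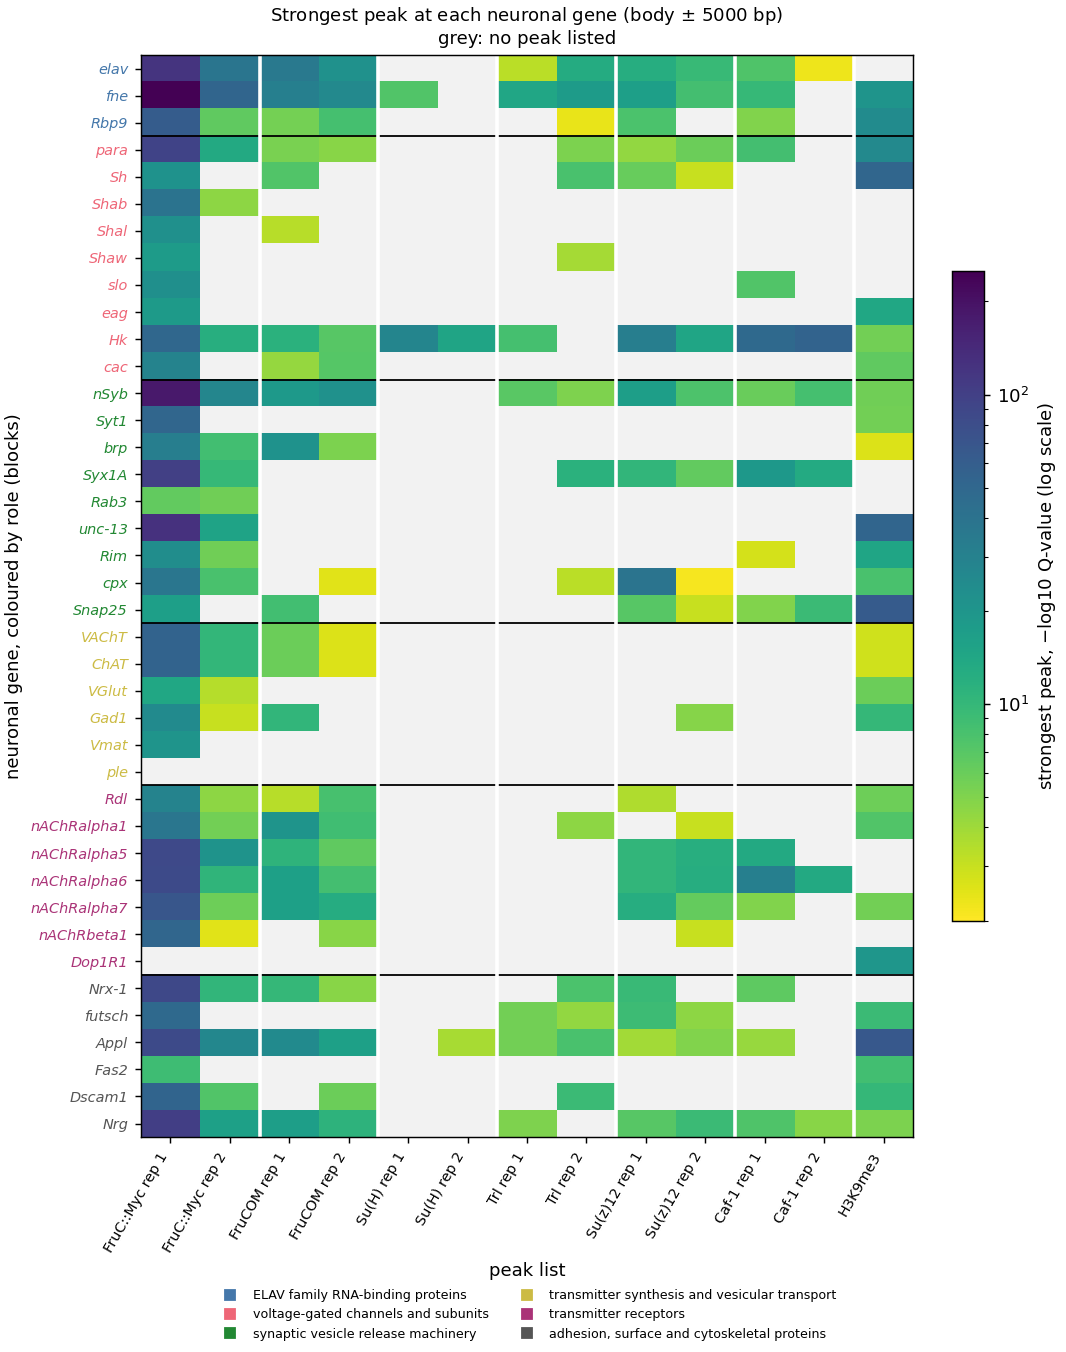
Strongest peak of each of the 13 peak lists (columns) in the stretch of each of the 40 members (rows, grouped by role), as −log10 Q-value in colour on a log scale, with grey cells where a list has no peak. FruC::Myc replicate 1 fills all rows but ple and Dop1R1, elav, fne and nSyb are filled across most factors, and Su(H) is filled at 3 members.

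The remaining factors were near more of the members than of the other genes over all lengths for FruCOM, Trl, Su(z)12 and Caf-1, but not within most classes of gene length. FruCOM peaks were at 25 of 40 members, beside 31% of the other genes, Trl peaks at 16, beside 17.2%, Su(z)12 peaks at 21, beside 33.1%, and Caf-1 peaks at 16, beside 28.1%. In both replicates the counts were 18 (19.1%) for FruCOM, 5 (7.55%) for Trl, 15 (17.9%) for Su(z)12 and 7 (12.6%) for Caf-1. At promoters the counts were 11 for FruCOM, beside 12.5%, 4 for Trl, beside 6.4%, 13 for Su(z)12, beside 14.9%, and 7 for Caf-1, beside 11.6%. These counts take no account of the members' length.

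For the 11 members of 50 kb or longer, the counts were 8 for FruCOM, beside 75.5% of the other genes of that length, 4 for Trl, beside 56.0%, 6 for Su(z)12, beside 76.8%, and 4 for Caf-1, beside 66.9%. In both replicates, 0 of these 11 had a Trl peak, beside 33.4%, and 2 had a Caf-1 peak, beside 47.0%. Su(z)12 was at 5 of them in both replicates, beside 63.2%, and FruCOM at 5, beside 61.6%. The 16 members of 20 to 50 kb gave 9, 6, 8 and 7 for the same factors in the same order, beside 61.2%, 42.8%, 58.8% and 48.3%. In the 12 members of 5 to 20 kb the counts were 8, 5, 6 and 4, beside 45.8%, 26.6%, 46.9% and 40.2%. In the members of 50 kb or longer, Trl, Su(z)12 and Caf-1 in either replicate were thus below their backgrounds, and FruCOM was within 2 genes of its own. In both replicates, Su(z)12 and FruCOM of these members were within 2 genes of their backgrounds. In the members of 20 to 50 kb, all 4 factors in either replicate were within 2 genes of their backgrounds. In both replicates of that class, FruCOM was at 8 of 16, beside 44.6%, and Su(z)12 at 7, beside 38.8%. Trl was there at 3, beside 24.9%, and Caf-1 at 2, beside 28.4%. In the members of 5 to 20 kb, FruCOM in either replicate was above its background, and Su(z)12, Trl and Caf-1 were within 2 genes of theirs. In both replicates, FruCOM was at 5 of these 12, beside 28.4%, and Su(z)12 at 2, beside 26.8%. Caf-1 was there at 2, beside 18.6%, and Trl at 2, beside 11.6%. Counted this way, FruCOM too was within 2 genes of its background.

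FruC::Myc peaks at the members were also joined by other factors less often than those elsewhere. Of the 210 replicate 1 peaks, 17.6% overlapped a FruCOM replicate 1 peak, beside 25.2% elsewhere, 12.9% a Su(z)12 replicate 1 peak, beside 19.5%, 7.62% a Caf-1 replicate 1 peak, beside 16.3%, 3.33% a Trl replicate 1 peak, beside 6.67%, and 0.952% a Su(H) replicate 1 peak, beside 3.52%. In the second replicates the same order held, with 12.9% beside 17.3% for FruCOM, 11.9% beside 13.8% for Su(z)12, 3.33% beside 10.2% for Caf-1 and 5.71% beside 8.65% for Trl. Peaks at members were weaker, and among peaks of like strength the order varied. Of the 50 with a −log10 Q-value from 20 to 50, 34% overlapped a FruCOM replicate 1 peak, beside 24.2% elsewhere, and of the 29 at 50 or more, 55.2%, beside 69.1%. At 50 or more, Su(z)12 replicate 2 was at 48.3%, beside 42.9%, Caf-1 replicate 2 at 17.2%, beside 31.9%, and H3K9me3 at 0 of 29, beside 15.5%. Counted per gene in either replicate, 3 members (fne, Hk and Appl) had a peak of all 6 factors, beside 2.61% of the other genes, and 2 members had a peak of none, beside 22.3%. With a peak required in both replicates, 0 members had all 6 factors, beside 1.01%, and 9 had none, beside 56.2%. These shares take no account of gene length.

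H3K9me3 was listed at 27 of 40 members, beside 30.7% of the other genes, and 0 members passed a −log10 Q-value of 100. By length of the gene body, it was at 5 of 12 members of 5 to 20 kb, beside 35.7%, at 14 of 16 of 20 to 50 kb, beside 46.5%, and at 8 of 11 of 50 kb or longer, beside 63.2%. The highest values were 66.2 at Appl, 62.2 at Snap25, 52.0 at unc-13 and 51.0 at Sh. Of the 259 H3K9me3 peaks at members, 5 genes held 196 (75.7%): Snap25 had 103, Sh 31, Appl 23, para 21 and unc-13 18. H3K9me3 peaks covered 31.95% of the stretch of Snap25, 24.5% of that of Appl, 16.1% of that of unc-13, 11.0% of that of Sh and 9.55% of that of para. Another 14 members had 1 or 2 peaks and 13 had 0. Members on the X chromosome had an H3K9me3 peak in 11 of 12 cases, beside 51.7% of the other X-linked genes, and the rest in 16 of 28, beside 26.8%. H3K9me3 was deposited as 1 list for both replicates. The Methods describe MACS2 calls made much as for the factors, but not whether that list holds pooled, merged or single calls.

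The 3 window tables come from a comparison of fruC-null with control brains by diffReps, and only the positions of the listed windows were used here. Being listed says neither which genotype had more of a mark nor how much of it there was. H3K27ac windows were listed in the stretches of 39 members, beside 88.4% of the other genes, H3K4me3 windows at 40, beside 86.4%, and H3K27me3 windows at 40, beside 85%. At promoters the counts were 25 members with an H3K27ac window, beside 64.3%, 34 with H3K4me3, beside 68.2%, and 21 with H3K27me3, beside 46.6%. The one member without an H3K27ac window in its stretch was Sh, whose H3K27me3 windows covered 0.806%.

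Listed windows covered less of the members' stretches than of the other genes' stretches over all lengths. The median cover was 12.0% for H3K27ac, against 32.7% in the other genes, 18.6% for H3K4me3, against 43.5%, and 8.75% for H3K27me3, against 12.1%. In members of 5 to 20 kb the medians were 31.7% for H3K27ac, against 30.8%, 44.9% for H3K4me3, against 43.1%, and 21.0% for H3K27me3, against 12.1%. From 20 to 50 kb they were 14.6% against 15.7%, 18.6% against 19.6% and 9.20% against 11.0%, in the same order of marks. The clearest gap was in members of 50 kb or longer, where H3K27ac windows covered 4.78%, against 10.1%, and only 1 of 11 members was above the median of the other genes, while H3K4me3 had 8.02%, against 10.9%, and H3K27me3 4.54%, against 7.42%.

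The genes most covered differed between marks. H3K27ac windows covered most of the stretches of VAChT (62.4%), cpx (59.6%) and elav (56.2%), and H3K4me3 windows most of nSyb (69.5%), Rab3 (56.0%) and Gad1 (50.6%). H3K27me3 windows covered 92.4% of VGlut, 86.1% of Gad1 and 85.6% of Appl. These are 3 members above 80%, beside 2.67% of the other genes. VGlut had no peak of Su(z)12 or Caf-1, and Gad1 had a Su(z)12 peak of 4.82 in replicate 2 alone. Appl had Su(z)12 in both replicates, at 3.92 and 5.03, and Caf-1 at 4.20 in replicate 1 alone. Synthesis and transport genes as a group had the highest median H3K27me3 window cover of the 6 roles, at 36.7%, and transmitter receptors the lowest, at 4.51%, close to the channels at 4.54%. The median bodies of the first 2 groups were 14.0 and 49.4 kb, and VAChT and ChAT share one locus. In 8 other synthesis and transport genes the median cover was 18.9%, and in 29 other transmitter receptors it was 8.72%.

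**Figure D4:**
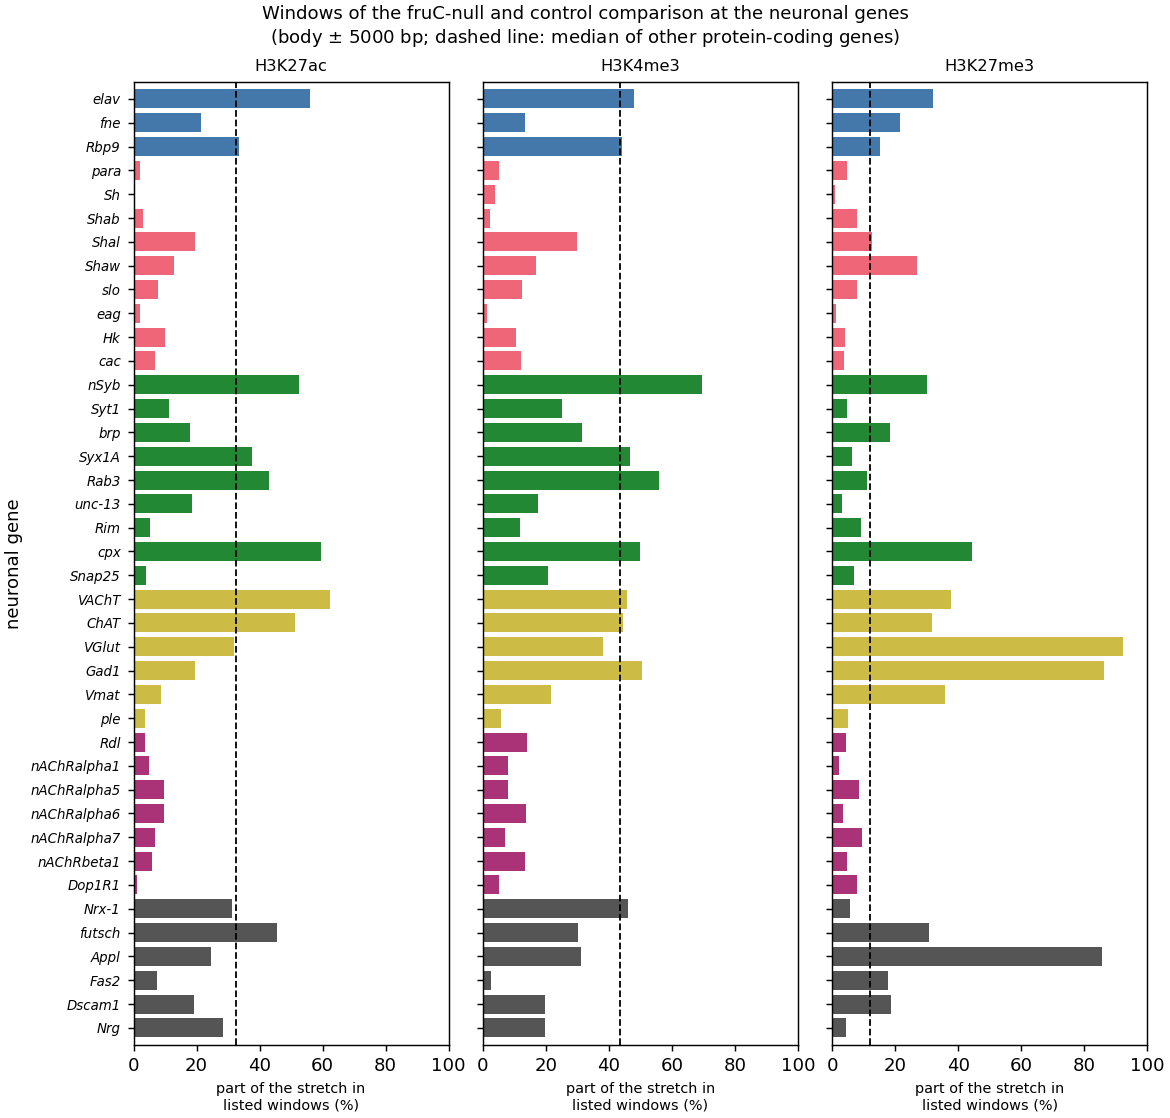
Percent of the stretch of each member covered by listed H3K27ac, H3K4me3 and H3K27me3 windows, with a dashed line at the median of the other genes (32.7%, 43.5% and 12.1%). Bars run past the line in 9 members for H3K27ac, 10 for H3K4me3 and 17 for H3K27me3, where VGlut, Gad1 and Appl have the longest.

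At promoters, windows of all 3 marks were listed for 14 members (35%), beside 33.5% of the other genes. H3K4me3 windows alone were listed at 8 members (20%), beside 5.55%. These 8 were the channels para, Sh and cac, the release genes Syt1 and Rim, and the receptors Rdl, nAChRalpha6 and nAChRbeta1. No window of any mark lay at the promoters of eag and ple (5%), beside 19.5% of the other genes. Of the 210 FruC::Myc replicate 1 peaks at members, 56.2% overlapped a listed H3K27ac window, beside 65.6% elsewhere, 67.1% an H3K4me3 window, beside 74.6%, and 40.5% an H3K27me3 window, beside 50.7%.

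Other gene lists gave the scale of these values. A list of 72 further neuronal genes of the same roles, chosen like the members with earlier results of these data known, had a FruC::Myc peak at 66 and one above 100 at 9 (12.5%, the same share as the members). Of 12 neuroblast genes, 10 had one above 100 (83.3%), although their bodies were shorter, with a median of 9.06 kb. Their strongest replicate 1 values had a median of 147 and ran from 83.0 to 206. Among the members, fne and nSyb lay above that median. The 12 included ase at 153 and pros, the highest, at 206. The paper recognizes type II neuroblasts by the absence of Ase protein and scores ganglion mother cells by Pros together with Ase. Not all of the 12 are therefore markers of the neuroblasts that fill these brains. By name, dpn had 105 and 27.4 in the FruC::Myc replicates, klu 170 and 43.3, tll 177 and 37.7, N 205 and 36.7, and E(spl)mgamma-HLH 83.0 and 17.4. Su(H) peaks lay at 9 of the 12 and Trl and Su(z)12 peaks at all 12. The paper had already reported FruC, Su(H) and Trl at these named genes from the same samples. The counts of the neuroblast list were thus partly known when it was chosen, and it is no independent reference. Of 9 glial genes, 7 had a FruC::Myc replicate 1 peak and 2 had one above 100.

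**Figure D5:**
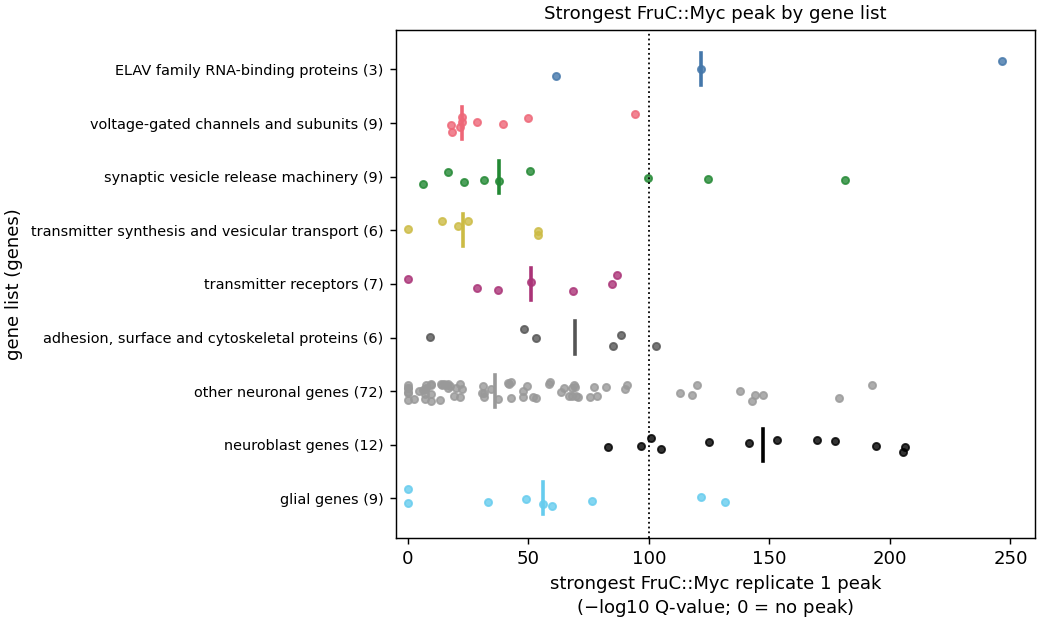
Strongest FruC::Myc replicate 1 peak (−log10 Q-value) of each gene, by the 6 roles of the members and by lists of 72 other neuronal, 12 neuroblast and 9 glial genes, with genes without a peak at 0, a short line at each median and a dotted line at 100. Neuroblast genes lie between 83.0 and 206, and most members of every role but the ELAV family lie below 100.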

How the data were processed

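CUT&RUN reads were trimmed by the authors with cutadapt and aligned to BDGP6 with Bowtie2, fragments shorter than 120 bp were kept for the factors, and peaks were called on each replicate with MACS2. Each deposited peak list gives the fold enrichment of a peak over its local background, as MACS2 wrote it for the authors, and the summit. The deposited −log10 Q-value is the authors' significance of a peak in its own list and depends on depth, which is unknown because the lists hold no read totals. The 3 deposited window tables hold regions that the authors found with diffReps in 500 bp windows between fruC-null and control brains, with the authors' event, log2 fold change and adjusted p-value, which were not used. Only positions and lengths of these windows were read. H3K9me3 was deposited as 1 list, and the IgG sample was not analysed here. Columns of samples of other series numbered 0.

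Genes and start sites came from Ensembl release 115 of BDGP6, whose chromosome lengths match the files, except that windows on 2L end 38 bases past its end. A gene counted as having a peak where 1 bp of a peak of either replicate overlapped its body or the 5000 bp on each side. A promoter took in 1000 bp before a start site and 100 bp after it. With 2 lists per antibody and no read counts, no test over samples could be made, so members are described beside all other protein-coding genes. Shares of members carry 95% Wilson intervals. All members may be named. Values in full were given for the 10 members with the strongest FruC::Myc replicate 1 peak, members with a FruCOM peak above 20, any Su(H) peak or no FruC::Myc peak, and the 3 members most covered by windows of each mark. Of other genes, dpn, klu, tll, N and E(spl)mgamma-HLH were named by rule. Neighbours, ase, pros and the further neuronal genes of the last section were named after seeing values. The members and lists were chosen with earlier results of these data known.

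Alternatives were other stretches, the summit or window midpoint in place of 1 bp, other Q-value thresholds, windows of at least 1000 bp, both replicates, each replicate left out, overlapping members counted once, and removal of regions around H3K9me3 peaks above 100, merged within 3000 bp. Overlap counting was tested on simulated data against bedtools 2.31.1. Scripts ran on numpy 2.4.6 under Python 3.11.15, with figures from matplotlib 3.10.9 and rank correlations from scipy 1.17.1.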

Additional observations from a re-analysis of the deposited data

How the results depend on the processing

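The count of 38 members with a FruC::Myc peak was 27 (39.5% of other genes) to 38 (77.2%) with either replicate left out. It stayed within 1.5 times under every alternative. The count above a −log10 Q-value of 100 rested on replicate 1. From 5 (13.5% of other genes), it was 3 in gene bodies alone (5.49%), 3 at promoters (5.17%) and 18 above 50 (36.4%). It was 0 in both replicates (0.129%), and 0 (0.129%) to 5 (13.5%) with either replicate left out. At promoters only, FruCOM gave 11 members (12.5% of other genes), Trl 4 (6.4%), Su(z)12 13 (14.9%) and Caf-1 7 (11.6%). H3K9me3 gave 6 there (9.26%), H3K27ac windows 25 (64.3%) and H3K27me3 windows 21 (46.6%). Above a −log10 Q-value of 10, FruCOM gave 12 (14.7% of other genes), Su(H) 1 (0.926%), Trl 3 (3.32%), Su(z)12 9 (11.5%), Caf-1 4 (9.38%) and H3K9me3 12 (11.6%). In both replicates, Su(H) gave 1 (1.59% of other genes), Trl 5 (7.55%) and Caf-1 7 (12.6%), and in gene bodies alone Caf-1 gave 8 (9.2%). With either replicate left out, Trl gave 7 (11% of other genes) to 14 (13.7%) and Caf-1 7 (15.6%) to 16 (25.1%). Over all alternatives, 70 values stayed within 1.5 times the reported one or within its spread and 24 moved. Removing H3K9me3 regions, counting overlapping members once or using 1000 bp on each side moved none of them. No paired analysis was possible because the results come from no test.

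Depth sets how many weak peaks a list holds and is unknown, so a gene without a peak is one where none was called, not one without binding. Gene length moved with every count, and members share some peaks. With 2 replicates per antibody and whole brains, neither replicate error nor the cell type behind a peak can be given.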

Other observations

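The neuronal genes without a FruC::Myc peak fell into one kind of signalling. This grouping was made from these same values, after they were seen, and is a description without a test. Of the 40 members and 72 further neuronal genes, 8 had no FruC::Myc peak in either replicate within 5000 bp, and all 8 serve dopamine, octopamine, tyramine or serotonin signalling: ple, Tbh and Tdc2, which make transmitter, the dopamine transporter DAT, and the receptors Dop1R1, Dop2R, 5-HT1B and Oamb. The lists held 20 such monoamine genes, counting prt, a relative of the vesicular monoamine transporter, so 8 of 20 lacked a peak, beside 0 of the remaining 92 neuronal genes and 22.8% of the other protein-coding genes. The other 12 monoamine genes had a peak, with −log10 Q-values in replicate 1 from 69.3 at DopEcR and 58.4 at SerT down to 7.05 at 5-HT7 and Octbeta1R and 6.43 at Octbeta2R. Of these 12, only DopEcR, SerT and Dop1R2 had a peak in both replicates. The remaining 92 neuronal genes also held weak peaks, such as 2.62 at Irk2 and 4.68 at Syngr. The split thus turns in part on weak calls of replicate 1. Gene bodies had a median of 17.9 kb in the 8 without a peak (range 5.23 to 58.0 kb) and 20.8 kb in the 12 with one, and the part of gene length in this count was not tested.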
